A study of Homo sapiens with 6 samples.

Results

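Collagen chain genes were taken as the genes whose symbol in the deposited table has the form COL, number, A, number, and 44 of the 60671 genes in the table met that rule. Antisense transcripts and pseudogenes with similar names were left out. The RNA came from HaCaT, a spontaneously immortalised human keratinocyte line whose genotype is labelled WT. Interferon beta (IFN-beta), a secreted type I interferon, was given at 160 ng/mL for 24 h in serum-free high-glucose DMEM in the 3 IFN-beta libraries. The 3 control libraries had the same medium for as long with no interferon, so both groups lacked serum for that time. The protocol gives that dose as the one used where no other is named, and the sample labels name none. The comparison addresses how a keratinocyte line responds to a type I interferon. Whether each replicate was its own culture is not labelled, and p-values therefore reflect the variation among 6 libraries, part or all of which could be technical.

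Collagens are secreted or membrane-anchored proteins whose chains wind around one another in trimers. Fibrillar collagens form the load-bearing fibres of the dermis and are made mainly by fibroblasts there, whereas keratinocytes make the collagens of the junction beneath the epidermis. These include the type IV network of the basement membrane, the type VII anchoring fibrils that tie it to the dermis, and type XVII collagen, a transmembrane protein of the hemidesmosome, the plaque by which basal keratinocytes hold to the basement membrane.

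The libraries held between 25832158 and 30594527 reads, and control replicate 3 was the shallowest. Values are FPKM as the authors deposited them, that is fragments divided by gene length and by library reads, and errors between libraries are SD (n = 3 per group). The interferon-stimulated gene MX1 was at 680 FPKM in IFN-beta cells and 4.57 FPKM in control cells, which goes with the treatment labels. All 8 keratinocyte markers checked were above 0.5 FPKM, and their summed level ran from 3590 to 3663 FPKM in IFN-beta libraries and from 3621 to 3910 FPKM in control libraries. Within that sum KRT5 and PERP were called lower and TP63, ITGB4, SFN and KRT6A higher, with KRT5 at 964 ± 14.8 FPKM with IFN-beta and 1374 ± 81.0 FPKM in control cells (limma adjusted p = 6.04e-05). Of 8 fibroblast markers, 6 (PDGFRA, PDGFRB, DCN, LUM, THY1 and DPT) were below 0.5 FPKM, with DCN and DPT at 0 reads in all 6 libraries. The summed fibroblast level ran from 2.84 to 3.15 FPKM in IFN-beta libraries and from 1.86 to 3.05 FPKM in control libraries, and FAP and TWIST2 were the fibroblast markers above 0.5 FPKM. TWIST2 was called higher, at 2.01 ± 0.153 FPKM with IFN-beta and 1.47 ± 0.132 FPKM in control cells (limma adjusted p = 0.0386). Of the 5 endothelial genes CDH5 alone was above 0.5 FPKM. The list summed to between 2.12 and 2.22 FPKM with IFN-beta and to between 0.696 and 0.964 FPKM in control libraries. CDH5 was called higher, at 1.97 ± 0.101 FPKM with IFN-beta and 0.731 ± 0.0847 FPKM in control cells (limma adjusted p = 0.000273). The melanocyte list, with MLANA and TYR at 0, summed to between 3.34 and 3.91 FPKM with IFN-beta and to between 4.14 and 4.69 FPKM in control libraries. Its members above 0.5 FPKM were MITF, which was called lower (limma adjusted p = 0.0254), and PMEL. PMEL was at 1.57 ± 0.224 FPKM with IFN-beta and 1.41 ± 0.0047 FPKM in control cells and did not pass (limma adjusted p = 0.511). Leukocyte markers summed to between 3.38 and 4.05 FPKM with IFN-beta and to between 2.84 and 4.01 FPKM in control libraries. Pericyte and smooth muscle markers summed to between 3.16 and 4.37 FPKM and to between 3.61 and 4.62 FPKM. Only CD14 and RGS5 of these lists were above 0.5 FPKM, and neither passed. What these markers contribute to the collagen results was not tested. RNA came from bulk cells, so more cells expressing a gene and more RNA per cell cannot be told apart.

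Of the 44 collagen genes, 16 had a mean of at least 0.5 FPKM over the 6 libraries and were tested. The test was limma on log2(FPKM + 0.5) across all 15163 genes above that level, with Benjamini-Hochberg adjustment over all of them and a threshold of 0.05. In this fit 8 collagen genes were higher with IFN-beta, beside 22.5% of all genes tested, and 42.4% of all genes tested passed in either direction. These were COL17A1, COL13A1, COL27A1, COL1A1, COL4A1, COL4A2, COL9A2 and COL8A1. By the same limma fit 0 collagen genes were lower, beside 19.9% of all genes tested, and 0 at an unadjusted p under 0.05. By limma voom on recovered reads 0 were lower too. That count depended on processing: COL4A5 was called lower without control replicate 3, and COL4A5 and COL12A1 with the trend over gene length removed. The 3 IFN-beta values lay above the 3 control values without overlap in 10 of the 16 collagen genes, beside 28.6% of all genes tested, and below them in 0, beside 25.4%. COL8A1 reached the level for testing only through its IFN-beta libraries, so these counts over tested genes are descriptions. The median log2 change of the 16 was 0.28, against 0.01 over all genes tested. Control replicate 3 was the lowest of the control libraries in 12 of the 16 genes, against 43.4% of all genes tested.

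**Figure D1:**
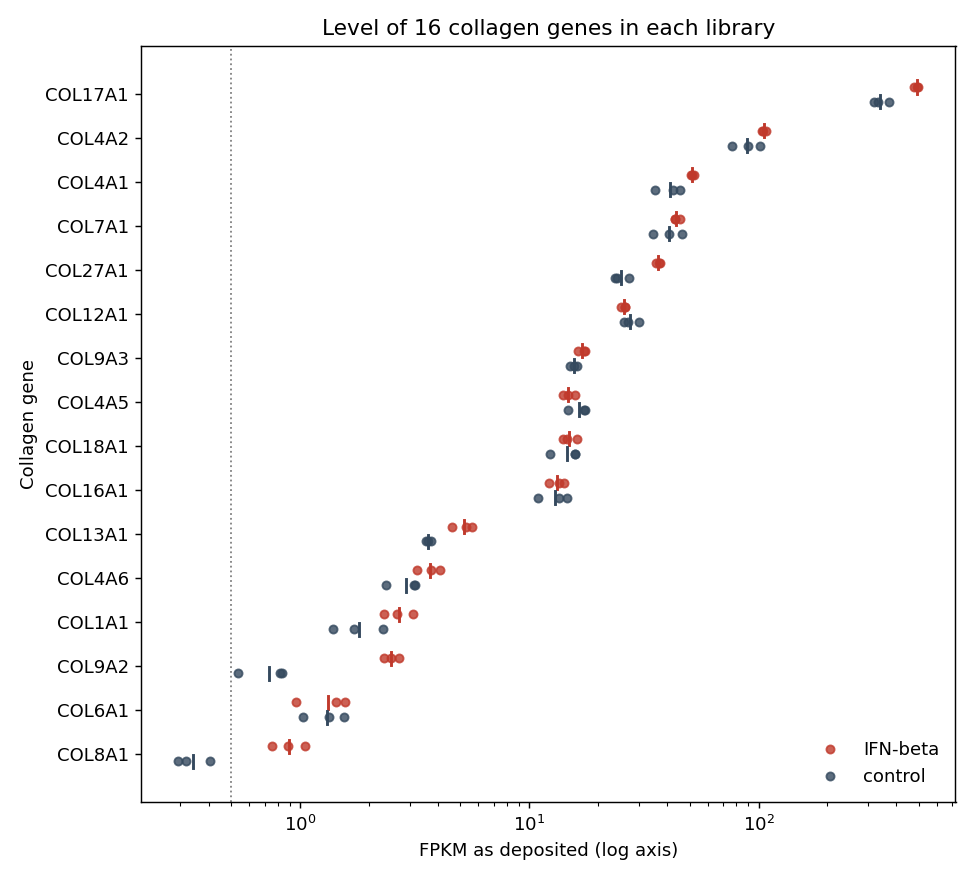
FPKM as deposited (log axis) of the 16 tested collagen genes, ordered by mean level, with a point for each of 3 IFN-beta libraries (red) and 3 control libraries (dark blue), short lines for the means and a dotted line at 0.5 FPKM. COL17A1 stands highest in both groups, at a mean of 489 FPKM with IFN-beta and 340 FPKM in control libraries.

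Both tested transmembrane collagens rose with IFN-beta, and 1 of them, COL17A1, was the most abundant collagen transcript in every library. COL17A1, on chromosome 10 from 104031286 to 104085880 on the minus strand in the deposited table, encodes type XVII collagen. It was at 494, 499 and 475 FPKM in IFN-beta libraries 1 to 3, and at 372, 331 and 318 FPKM in control libraries 1 to 3. Every IFN-beta library lay above every control library, with a gap between the groups wider than the range within either. The log2 change was 0.53 ± 0.057 (SE), with a limma adjusted p of 0.000128, and rested on between 26108 and 29318 reads with IFN-beta and between 16179 and 21654 reads in control libraries. COL17A1 held 59.3%, 59.2% and 58.2% of the summed collagen FPKM in the IFN-beta libraries, and 53.2%, 52.6% and 54.9% in the control libraries, so its share did not overlap between the groups.

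COL13A1, which encodes a transmembrane collagen of cell-matrix and neuromuscular contacts, was far below COL17A1. It was at 5.29, 4.61 and 5.62 FPKM in IFN-beta libraries 1 to 3 and at 3.72, 3.54 and 3.61 FPKM in control libraries 1 to 3. The control libraries lay close together and all below the lowest IFN-beta library. COL13A1 rose by log2 0.46 ± 0.090 (SE, limma adjusted p = 0.0036). The other transmembrane genes, COL23A1 and COL25A1, had 0 reads in all 6 libraries. Summed over the class, the level was 495 ± 11.9 FPKM with IFN-beta and 344 ± 28.1 FPKM in control libraries, a ratio of 1.44 that is carried almost wholly by COL17A1.

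The window around the annotated start of COL17A1, from 250 bases before it to 50 after, is shown because this gene has the highest collagen level in every library and because interferon acts through known DNA motifs. RefSeq windows on GRCh38.p14 were found for 12 of the 16 tested genes, in 14 windows, and not used for COL1A1, COL6A1, COL8A1 and COL9A3. In the COL17A1 window (chr10:104085831-104086130, minus strand, written 5′ to 3′ along the gene) capitals mark, in order, a reverse-strand match to the core of the interferon-stimulated response element, a TATA box match and a reverse-strand CCAAT match.
COL17A1: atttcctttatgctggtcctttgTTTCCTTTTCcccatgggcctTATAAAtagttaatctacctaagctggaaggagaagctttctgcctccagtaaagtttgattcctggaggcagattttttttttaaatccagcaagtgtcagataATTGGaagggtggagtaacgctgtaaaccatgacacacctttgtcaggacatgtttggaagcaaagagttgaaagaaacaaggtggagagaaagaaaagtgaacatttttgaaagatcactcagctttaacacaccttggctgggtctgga

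The motifs searched on both strands were the response element core (a pair of GAAA runs with 2 bases of any kind between), the GAS element TTCNNNGAA bound by STAT dimers, the GC box GGGCGG, the CCAAT box, the AP-1 element TGANTCA and the TATA box TATAAA. The response element core was found in 1 of the 14 collagen windows, that of COL17A1 at -227 from the start, and in 3.57% of 35116 RefSeq promoter windows. GAS letters were also found in 1 collagen window, that of COL7A1 at -162 and -152, which share no base, and in 7.66% of all windows. AP-1 letters were in 0 of 14 collagen windows and 7.71% of all windows. The match in COL17A1 is a description of letters in this window, and binding to it was not tested.

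**Figure D2:**
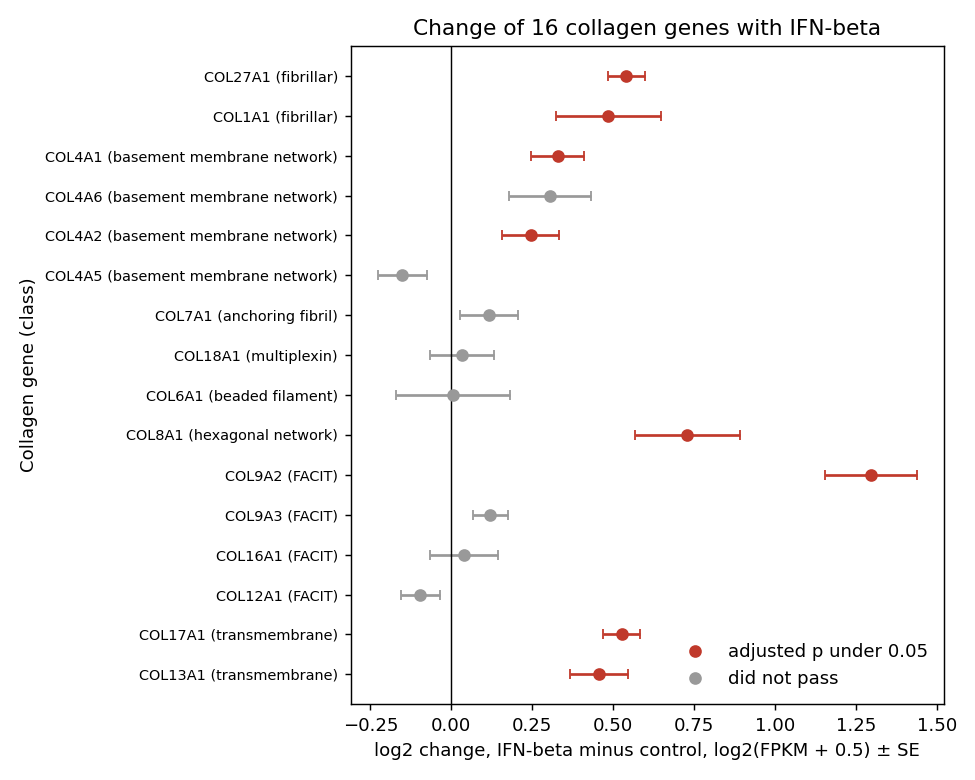
log2 change on the log2(FPKM + 0.5) scale, IFN-beta minus control, with SE, for the 16 tested collagen genes grouped by class; red points passed the limma test at an adjusted p of 0.05 and grey points did not. COL9A2 lies farthest right at 1.30, and 8 of 16 points are red.

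The basement membrane network was led by COL4A1 and COL4A2, whose chains assemble into the type IV trimer found in nearly all basement membranes. Both rose with IFN-beta, COL4A2 only narrowly. COL4A1 (chromosome 13, 110148963 to 110307157, minus strand) was at 51.1, 52.6 and 50.7 FPKM in IFN-beta libraries 1 to 3, and at 45.6, 42.3 and 35.3 FPKM in control libraries 1 to 3. The IFN-beta libraries differed little from one another and all lay above the control libraries, which were more spread. The log2 change of COL4A1 was 0.33 ± 0.082 (SE, limma adjusted p = 0.0111).

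COL4A2 (chromosome 13, 110305812 to 110513209, plus strand) was at 108, 104 and 105 FPKM in IFN-beta libraries 1 to 3, and at 102, 90.4 and 76.3 FPKM in control libraries 1 to 3. The groups did not overlap, but the highest control library came close to the lowest IFN-beta library. Its log2 change was 0.25 ± 0.088 (SE, limma adjusted p = 0.0499). The call ended in 12 of 19 alternative settings, among them without any 1 of the IFN-beta libraries or control replicate 2, and without control replicate 3, the lowest library, the change was 0.136 (limma adjusted p = 0.0672). COL4A2 stood over COL4A1 by a ratio of 2.11, 1.97 and 2.07 in IFN-beta libraries and 2.23, 2.14 and 2.16 in control libraries. The ratio was lower with IFN-beta without overlap, but the highest IFN-beta ratio and the lowest control ratio were close.

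COL4A1 and COL4A2 lie head to head, and their windows are shown because they share letters. The COL4A1 window is chr13:110307108-110307407 on the minus strand and the COL4A2 window chr13:110307034-110307333 on the plus strand. They share 226 bases, read from opposite strands, and the annotated starts lie 127 bases apart. Capitals mark GC box and CCAAT matches on either strand.
COL4A1: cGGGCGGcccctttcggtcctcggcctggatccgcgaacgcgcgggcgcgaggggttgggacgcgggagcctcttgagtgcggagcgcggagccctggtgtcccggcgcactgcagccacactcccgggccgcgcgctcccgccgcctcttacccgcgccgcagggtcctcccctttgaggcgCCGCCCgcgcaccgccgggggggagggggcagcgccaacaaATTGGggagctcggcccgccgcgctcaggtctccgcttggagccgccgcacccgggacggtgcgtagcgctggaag
COL4A2: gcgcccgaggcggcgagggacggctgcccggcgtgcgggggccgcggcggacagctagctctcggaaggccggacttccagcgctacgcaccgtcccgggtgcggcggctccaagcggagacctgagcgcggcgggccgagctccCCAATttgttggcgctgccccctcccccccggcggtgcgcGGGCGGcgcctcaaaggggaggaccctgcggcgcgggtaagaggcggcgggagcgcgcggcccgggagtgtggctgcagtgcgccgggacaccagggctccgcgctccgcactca

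In COL4A1 a GC box stands at the upstream end of the window, another starts at -67, and the CCAAT match at -26. In COL4A2 the GC box starts at -65 and the CCAAT match at -105. The downstream GC box of COL4A1 and its CCAAT match are the same bases as those of COL4A2. GC box letters stood in 10 of the 14 collagen windows and 45% of all windows, and CCAAT letters in 5 and in 34.6%. These counts take bases shared by overlapping windows once per window. The CCAAT matches of COL4A5 at -247 and -239 are the same bases as those of COL4A6 at -137 and -145. COL18A1 entered the GC box count through separate windows.

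The X-linked pair COL4A5 and COL4A6, whose chains form the type IV trimer of epidermal and smooth muscle basement membranes, did not pass the test. COL4A6 (chromosome X, 108155607 to 108439497, minus strand) was at 4.07, 3.71 and 3.25 FPKM in IFN-beta libraries 1 to 3, and at 3.18, 3.13 and 2.36 FPKM in control libraries 1 to 3. The groups did not overlap, although the lowest IFN-beta and highest control libraries were close. Its log2 change was 0.31 ± 0.126 (SE, limma adjusted p = 0.082), and it passed with limma voom on recovered reads (adjusted p = 0.0168). COL4A6 stood at 0.188 without control replicate 3 (limma adjusted p = 0.217) and at 0.188 with quantile scaling (0.247). COL4A5 (chromosome X, 108439838 to 108697545, plus strand) was at 14.02, 15.8 and 14.7 FPKM in IFN-beta libraries 1 to 3, and at 17.5, 17.3 and 14.8 FPKM in control libraries 1 to 3. Control replicate 3 lay among the IFN-beta values while the other control libraries lay above them. The log2 change was -0.15 ± 0.077 (SE, limma adjusted p = 0.146), and without control replicate 3 it was -0.229 (limma adjusted p = 0.0192). The COL4A5 over COL4A6 ratio was 3.45, 4.25 and 4.53 with IFN-beta and 5.52, 5.54 and 6.24 in control libraries, with every IFN-beta value lower. The annotated COL4A5 start and the nearer COL4A6 start lie 380 bases apart on opposite strands, with 121 bases shared by their windows. A further COL4A6 window, from 108438373, does not reach the COL4A5 window.

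COL4A3 and COL4A4, whose chains join COL4A5 in the kidney's filtration barrier, were near 0. COL4A3 had 1, 0 and 0 reads in IFN-beta libraries and 0, 0 and 0 in control libraries, and COL4A4 had 3, 3 and 6 with IFN-beta and 2, 6 and 3 without. Their levels lay far below the other type IV chains in both groups. The summed class was at 177, 176 and 174 FPKM in IFN-beta libraries and at 168, 153 and 129 FPKM in control libraries, with no overlap. At a ratio of means of 1.17, this sum moved less than that of the transmembrane class.

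COL7A1 (chromosome 3, 48564073 to 48595267, minus strand) encodes type VII collagen of the anchoring fibrils. It was at 43.2, 45.3 and 43.1 FPKM in IFN-beta libraries 1 to 3, and at 46.4, 40.8 and 34.8 FPKM in control libraries 1 to 3. The control range covered both ends of the IFN-beta range, so the groups overlapped. The log2 change was 0.12 ± 0.089 (SE, limma adjusted p = 0.326). Without control replicate 1 it was 0.217 (limma adjusted p = 0.0367), and without control replicate 3 it was 0.011. COL18A1, whose product is a basement membrane collagen that yields endostatin, averaged 14.9 ± 1.05 FPKM with IFN-beta and 14.7 ± 2.02 FPKM in control cells (log2 change 0.03 ± 0.099, limma adjusted p = 0.817), and its sign changed with some settings. Of its exonic bases 16.4% overlap SLC19A1 on the opposite strand, and since strand use is not given, reads of the 2 genes cannot be told apart there. COL15A1, the other collagen of this class, had 11, 9 and 7 reads with IFN-beta and 5, 6 and 9 in control libraries.

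**Figure D3:**
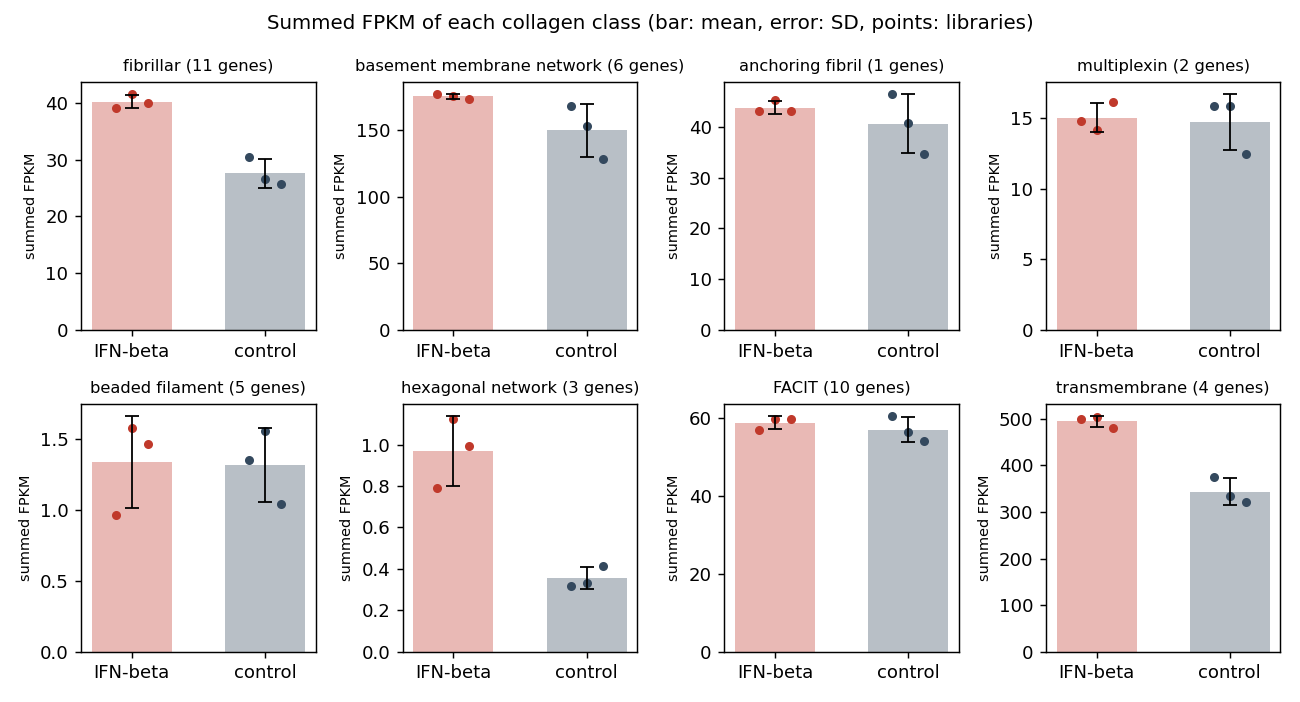
Summed FPKM of each of 8 collagen classes: bars are means, error bars SD and points the 3 IFN-beta libraries (red, left) and 3 control libraries (dark blue, right). The fibrillar, basement membrane, hexagonal and transmembrane sums do not overlap between groups, while the other 4 panels overlap.

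Fibrillar collagens were represented mainly by COL27A1, and both tested members of the class rose. COL27A1 (chromosome 9, 114155537 to 114312511, plus strand), which encodes a fibrillar collagen of developing cartilage, was at 35.6, 37.2 and 36.8 FPKM in IFN-beta libraries 1 to 3, and at 27.2, 24.1 and 23.7 FPKM in control libraries 1 to 3. All IFN-beta libraries lay well above all control libraries. The log2 change was 0.54 ± 0.058 (SE, limma adjusted p = 0.000123). Its window (chr9:114155287-114155586, plus strand) is shown because it is the fibrillar gene with most reads, with capitals on GC box matches at -170, -84 and 44.
COL27A1: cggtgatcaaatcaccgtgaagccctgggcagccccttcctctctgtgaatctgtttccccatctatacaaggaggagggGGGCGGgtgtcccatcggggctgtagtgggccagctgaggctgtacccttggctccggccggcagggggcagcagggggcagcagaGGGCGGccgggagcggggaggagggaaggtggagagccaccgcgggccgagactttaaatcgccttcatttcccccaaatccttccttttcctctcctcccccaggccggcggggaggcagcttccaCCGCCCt

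COL1A1, which encodes the main chain of type I collagen, was low. It was at 2.65, 3.11 and 2.31 FPKM in IFN-beta libraries 1 to 3, from 87, 90 and 77 reads, and at 2.30, 1.71 and 1.39 FPKM in control libraries 1 to 3, from 74, 56 and 39 reads. The lowest IFN-beta library and the highest control library lay next to each other. The log2 change of COL1A1 was 0.48 ± 0.162 (SE, limma adjusted p = 0.0391). The call was kept in 10 of 18 alternatives. Among these was the minimum of 2 FPKM (limma adjusted p = 0.032), although the control mean of COL1A1 was 1.80 FPKM. COL1A1 passed that minimum only through its IFN-beta libraries, so a difference was favoured by that filter. The call ended without IFN-beta replicate 1 (limma adjusted p = 0.0867) or 2 (0.129), and without control replicate 2 (0.0963) or 3 (0.105).

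The chains of type I and type III collagen other than COL1A1 were almost undetected, and the type V chains were low. COL1A2, the second chain of type I collagen, had 0, 0 and 0 reads with IFN-beta and 1, 0 and 0 in control libraries. COL3A1, the type III chain, had 1, 1 and 0 reads with IFN-beta and 2, 2 and 2 in control libraries. COL5A1, of type V collagen, which regulates fibril width, fell just below the tested level at 0.518 ± 0.0508 FPKM with IFN-beta and 0.395 ± 0.128 FPKM in control cells. COL5A2 had 7, 13 and 11 reads with IFN-beta and 8, 9 and 11 without, so its groups overlapped. COL5A3 averaged 0.299 FPKM with IFN-beta and 0.204 FPKM in control cells. COL11A1 had 0 reads in all 6 libraries, while COL2A1, COL11A2 and COL24A1 had at most 14 reads in any library. The class summed to 40.3 ± 1.21 FPKM with IFN-beta and 27.6 ± 2.53 FPKM in control cells, a ratio of 1.46, mostly from COL27A1.

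Among the FACIT collagens, which attach to the surface of other fibrils, 1 of 4 tested genes rose. COL9A2 (chromosome 1, 40300489 to 40317813, minus strand), which encodes a type IX collagen chain of cartilage, was at 2.32, 2.48 and 2.70 FPKM in IFN-beta libraries 1 to 3, from 71, 67 and 84 reads, and at 0.832, 0.820 and 0.533 FPKM in control libraries 1 to 3, from 25, 25 and 14 reads. Every IFN-beta library held more than the highest control library, with no overlap. The mean ratio was 3.43 and the log2 change 1.30 ± 0.142 (SE, limma adjusted p = 0.000134), the largest among the 16 tested collagen genes and at the 98.1th percentile of all genes tested. Its partner COL9A3 averaged 17.04 ± 0.694 FPKM with IFN-beta and 15.6 ± 0.537 FPKM in control cells (log2 change 0.12 ± 0.054, limma adjusted p = 0.104). The COL9A3 over COL9A2 ratio was 7.02, 7.08 and 6.40 in IFN-beta libraries and 19.4, 18.4 and 29.4 in control libraries. COL9A1, the other type IX chain, had 0 reads in all 6 libraries.

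The COL9A2 window (chr1:40317237-40317536, minus strand) is shown because its gene had the largest change, with capitals on GC box matches at -126, -47 and -42, of which the last pair overlap.
COL9A2: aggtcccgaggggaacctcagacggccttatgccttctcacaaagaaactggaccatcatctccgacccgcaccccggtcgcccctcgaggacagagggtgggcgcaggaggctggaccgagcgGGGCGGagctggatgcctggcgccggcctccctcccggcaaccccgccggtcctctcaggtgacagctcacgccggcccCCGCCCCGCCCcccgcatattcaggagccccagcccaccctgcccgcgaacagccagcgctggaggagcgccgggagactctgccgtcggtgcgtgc

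COL12A1, a FACIT collagen of fibril surfaces in skin and tendon, averaged 25.8 ± 0.479 FPKM with IFN-beta and 27.6 ± 2.14 FPKM in control cells, and its groups overlapped (log2 change -0.10 ± 0.059, limma adjusted p = 0.226). For COL12A1 the change was -0.035 without control replicate 1 and -0.05 under TPM. It was larger at -0.146 with quantile scaling (limma adjusted p = 0.0684) and -0.197 with the length trend removed (0.0184), where COL12A1 was called lower. COL16A1, found near the junction beneath the epidermis, averaged 13.3 ± 1.05 FPKM with IFN-beta and 13.0 ± 1.89 FPKM in control cells (log2 change 0.04 ± 0.104, limma adjusted p = 0.786), and its sign changed with some settings. COL14A1 and COL19A1 had 0 reads in all 6 libraries. COL22A1, which lies at muscle-tendon junctions, averaged 0.271 FPKM with IFN-beta and 0.197 FPKM in control cells. COL20A1 and COL21A1 had at most 4 reads in any library. The FACIT sum was 58.9 ± 1.64 FPKM with IFN-beta and 57.1 ± 3.29 FPKM in control cells, overlapping between groups.

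The hexagonal-network collagen COL8A1 (chromosome 3, 99638475 to 99799226, plus strand), a short-chain collagen of vessel walls and the cornea, was at 0.750, 1.05 and 0.882 FPKM in IFN-beta libraries 1 to 3, from 26, 32 and 31 reads, and at 0.294, 0.319 and 0.404 FPKM in control libraries 1 to 3, from 10, 11 and 12 reads. All IFN-beta libraries lay above all control libraries. The control mean of 0.339 FPKM was under the level for testing, which the gene passed only through its IFN-beta libraries, so a difference was favoured by that filter. The log2 change was 0.73 ± 0.162 (SE, limma adjusted p = 0.00644), and with no filter on low values the adjusted p was 0.0134. COL8A2, its close relative, had 1, 6 and 6 reads with IFN-beta and 1, 0 and 1 without. COL10A1 had 2, 1 and 4 reads with IFN-beta and 1, 1 and 0 without, which is too few to compare.

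Of the type VI collagens, which form beaded filaments and need all of their main chains for a trimer, COL6A1 averaged 1.32 ± 0.321 FPKM with IFN-beta and 1.31 ± 0.263 FPKM in control cells (log2 change 0.00 ± 0.175, limma adjusted p = 0.985), and its sign changed with some settings. Its partners were near 0. COL6A2 had 0, 0 and 2 reads with IFN-beta and 1, 0 and 0 without, while COL6A3 had 1, 1 and 0 with IFN-beta and 0, 0 and 0 without. COL6A5 had 0 reads in all 6 libraries, and COL6A6 at most 1. COL26A1, a secreted collagen of the testis and ovary, had 4, 3 and 6 reads with IFN-beta and 1, 0 and 1 without, and COL28A1, found in the nervous system, had at most 5 reads in any library. In genes with few reads the recovered count can be lower than the true one by a whole factor.

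Across all 44 genes the summed level was 830.4 ± 13.5 FPKM with IFN-beta and 636 ± 60.2 FPKM in control cells, a ratio of 1.31, with no overlap. Collagen genes held 0.172% ± 0.00273 of library reads with IFN-beta and 0.134% ± 0.0124 in control libraries. By mean FPKM the order in both groups began with COL17A1, COL4A2 and COL4A1. With IFN-beta the order continued with COL7A1, COL27A1, COL12A1 and COL9A3, each beyond the spread of its neighbour. In control cells COL4A1 and COL7A1 did not differ beyond their spread, nor did COL12A1 and COL27A1. COL18A1, COL4A5 and COL16A1 formed a run of neighbours within their spread in both groups, with COL9A3 among them in control cells.

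Levels between genes depend on the gene length in the deposited FPKM, which for the 16 genes is well under that of the longest GENCODE 29 transcript. Rescaled to that longest transcript, COL17A1 was at 169 ± 4.25 FPKM with IFN-beta and 118 ± 9.72 FPKM in control cells, still first. On this scale COL27A1, at 13.8 FPKM with IFN-beta and 9.46 FPKM in control cells, stood close to COL4A1, at 13.2 and 10.5 FPKM, and COL7A1 moved to 9.58 FPKM with IFN-beta and 8.88 FPKM in control cells, rank 6 in place of 4. The share of COL17A1 was 61.7%, 61.6% and 60.5% with IFN-beta and 55.7%, 54.9% and 57.0% in control libraries.

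**Figure D4:**
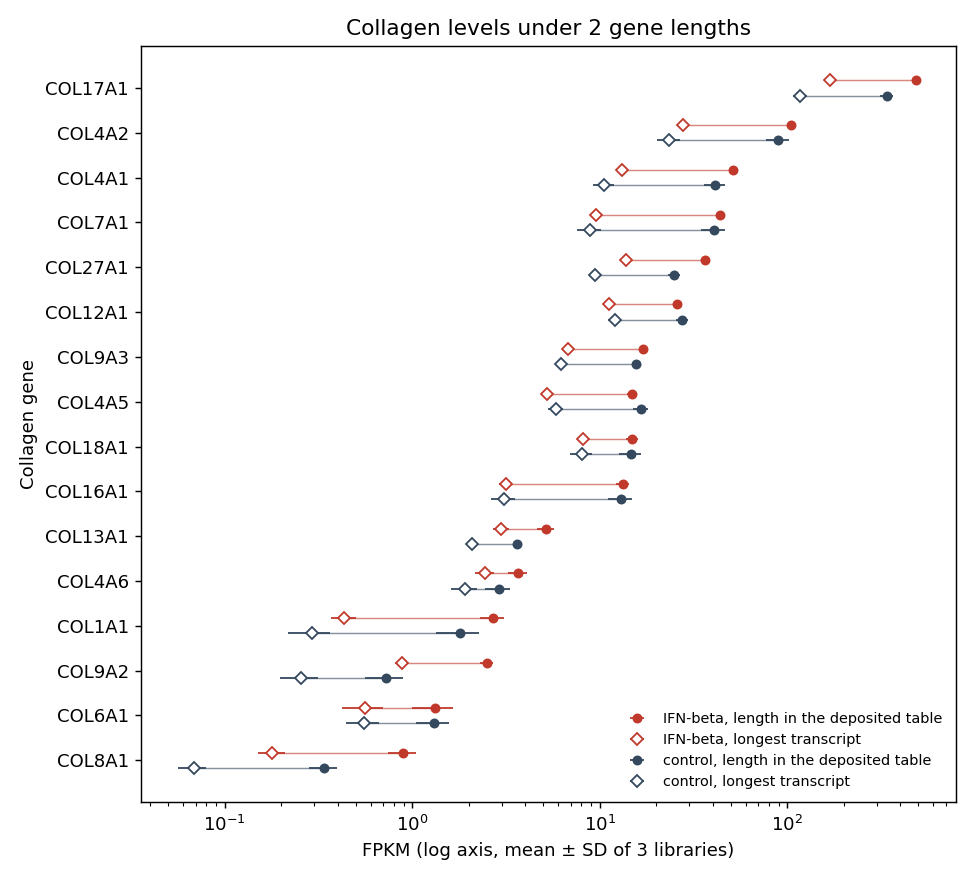
Mean FPKM ± SD (log axis, n = 3) of the 16 tested collagen genes with the length in the deposited table (filled circles) and with the longest transcript (open diamonds), IFN-beta in red above control in dark blue. The COL17A1 circles at 489 and 340 FPKM shift to diamonds at 169 and 118 FPKM.

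Genes that make, join, bind or cut collagen were read from lists of partners. Of 21 genes for collagen folding, modification and export, 17 were tested, 10 rose and 1 fell, beside 22.5% higher and 19.9% lower among all genes tested, with a median log2 change of 0.19 against 0.01 for all genes. PLOD3, which hydroxylates and glycosylates collagen lysines, rose to 84.9 ± 1.05 FPKM, against 65.0 ± 4.65 FPKM in control cells (log2 change 0.38, limma adjusted p = 0.000454). P4HA1, a subunit of the prolyl hydroxylase, rose to 43.0 ± 1.46 FPKM, against 34.2 ± 0.785 FPKM in control cells (log2 change 0.33, limma adjusted p = 0.000403). MIA2, which takes part in export of collagen from the endoplasmic reticulum, and P3H4, a partner of lysyl hydroxylation, rose by log2 0.40 and 0.37 (limma adjusted p = 0.000115 and 0.0114). SERPINH1, a collagen-specific chaperone named after its values were seen, rose to 236 ± 3.22 FPKM, against 192 ± 6.20 FPKM in control cells. FKBP14, a prolyl isomerase likewise named after its values were seen, fell with IFN-beta by 0.25 on the log2 scale. PPIB, another isomerase of this list, was at 737 ± 6.18 FPKM with IFN-beta and 699 ± 18.6 FPKM in control cells and did not pass (limma adjusted p = 0.118), although it did under TPM and quantile scaling and without control replicate 3.

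The list of procollagen processing and cross-linking had 7 of 15 genes tested, of which 2 rose and 2 fell, beside 22.5% higher and 19.9% lower among all genes tested, with a median log2 change of -0.06. Shares from so few genes lie near that background. TGM2, a transglutaminase that cross-links matrix proteins, was at 4.79, 5.78 and 5.69 FPKM in IFN-beta libraries 1 to 3, and at 1.14, 0.937 and 0.894 FPKM in control libraries 1 to 3. All IFN-beta libraries lay far above the control libraries, and the log2 change was 1.99 (limma adjusted p = 2.73e-06). LOXL1 and LOXL2, oxidases that initiate collagen and elastin cross-links, fell by 0.52 and 0.41 on the log2 scale (limma adjusted p = 0.000742 and 0.00346). LOXL2 was at 39.2 ± 1.66 FPKM with IFN-beta and 52.3 ± 6.45 FPKM in control cells. LOXL3 rose by log2 0.38 (limma adjusted p = 0.0267), a call kept in 10 of 18 alternatives. Among the settings that ended it were those without IFN-beta replicate 1 or 3, or without control replicate 2 or 3. BMP1, the procollagen C-proteinase, was at 28.8 ± 1.19 FPKM with IFN-beta and 30.6 ± 3.31 FPKM in control cells and did not pass (limma adjusted p = 0.446), although without control replicate 3 it passed at -0.167.

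Of 10 receptor and uptake genes, 5 were tested, 2 rose and 0 fell, beside 22.5% higher and 19.9% lower among all genes tested (median log2 change 0.13). With 5 genes the count says little about the list. ITGA2, the collagen-binding integrin chain of keratinocytes, was at 94.6, 96.4 and 95.0 FPKM in IFN-beta libraries 1 to 3, and at 59.0, 60.6 and 60.5 FPKM in control libraries 1 to 3. The groups were separated by a gap far wider than either range. ITGA2 rose by log2 0.66 (limma adjusted p = 1.28e-06). ITGA1 rose by log2 0.59 (limma adjusted p = 0.000985), while their shared partner ITGB1 was at 535 ± 11.3 FPKM with IFN-beta and 571 ± 17.5 FPKM in control cells (limma adjusted p = 0.0792), and passed as lower without control replicate 1 (0.0397).

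Of 18 hemidesmosome and basement membrane partners, 17 were tested, 11 rose and 1 fell, beside 22.5% higher and 19.9% lower among all genes tested (median log2 change 0.24). LAMA3, a laminin chain of the matrix to which the hemidesmosome binds, was among those that rose. It reached 237 ± 3.93 FPKM with IFN-beta, against 140 ± 3.63 FPKM in control cells (log2 change 0.76, limma adjusted p = 6.13e-07). NID1 and NID2, nidogens that link laminin to type IV collagen, rose by log2 1.05 and 0.84 (limma adjusted p = 1.13e-05 and 0.000173). ITGA6 and ITGB4, the hemidesmosomal integrin chains beside COL17A1, named after their values were seen, were at 330 ± 6.51 and 134 ± 4.81 FPKM with IFN-beta and at 276 ± 13.3 and 116 ± 11.4 FPKM in control cells. ITGA6 rose by log2 0.26 (limma adjusted p = 0.00135), and ITGB4 by 0.22 (limma adjusted p = 0.0279), a call that ended in 7 alternatives, including without IFN-beta replicate 1 or 3 and without control replicate 2. LAMB3, another laminin chain, likewise named after its values were seen, did not pass (limma adjusted p = 0.242). CD151, a tetraspanin partner of these integrins also named after its values were seen, fell by 0.17 on the log2 scale (limma adjusted p = 0.0289), a call that ended in 8 alternatives. LAMA5 was at 162 ± 6.12 FPKM with IFN-beta and 181 ± 24.2 FPKM in control cells and did not pass (limma adjusted p = 0.185), although without control replicate 3 it passed at -0.26.

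**Figure D5:**
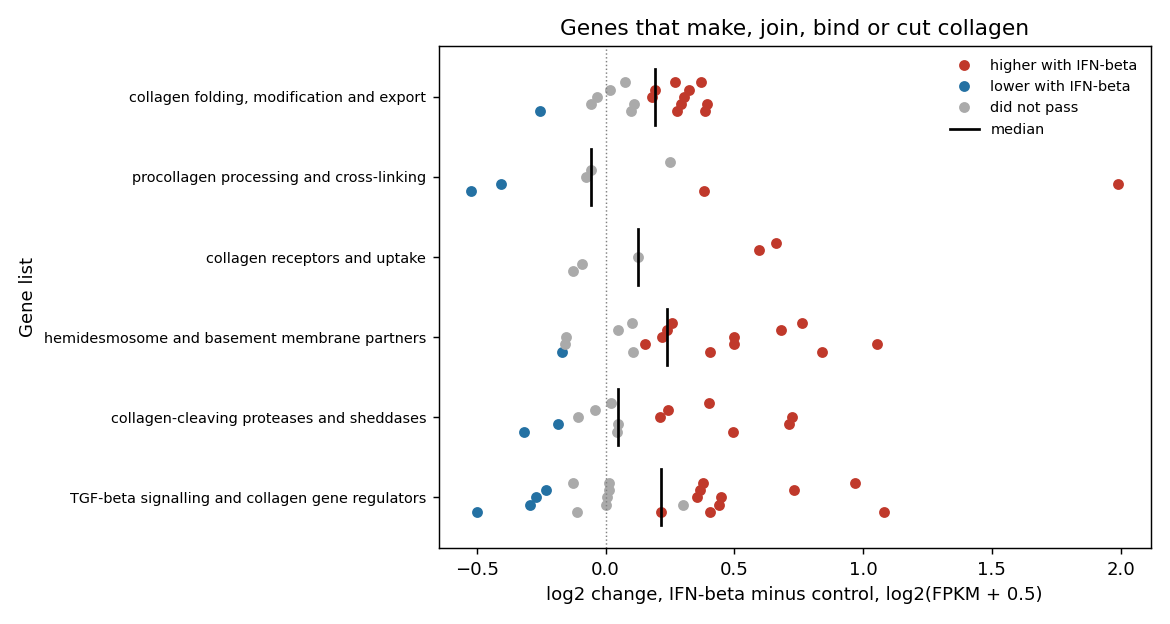
log2 change on the log2(FPKM + 0.5) scale, IFN-beta minus control, of the tested genes in each of 6 lists of collagen partners: red points passed the limma test as higher, blue as lower, grey did not pass, and black lines are medians. Medians run from -0.06 for processing and cross-linking to 0.24 for hemidesmosome and basement membrane partners.

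Of 15 proteases and sheddases, 13 were tested, 6 rose and 2 fell, beside 22.5% higher and 19.9% lower among all genes tested (median log2 change 0.05). The share that fell lies near the background. MMP1, an interstitial collagenase, was at 28.6, 27.8 and 29.4 FPKM in IFN-beta libraries 1 to 3, and at 15.9, 19.5 and 16.6 FPKM in control libraries 1 to 3. No library of one group reached the other. Its log2 change was 0.71 (limma adjusted p = 9.25e-05), and MMP13, another collagenase, rose by 0.72 (limma adjusted p = 0.00033). TIMP2, an inhibitor of these enzymes, and CTSL, a lysosomal protease, rose by log2 0.50 and 0.40 (limma adjusted p = 0.00122 and 0.000226). MMP2, a gelatinase that also cuts type IV collagen, and ADAM9, which can shed type XVII collagen, were named after their values were seen and fell by 0.32 and 0.19 on the log2 scale (limma adjusted p = 0.00119 and 0.00419). CTSB was at 419 ± 5.60 FPKM with IFN-beta and 430.2 ± 14.1 FPKM in control cells (limma adjusted p = 0.43).

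Of 21 genes of TGF-beta signalling and collagen gene regulation, 21 were tested, 10 rose and 4 fell, beside 22.5% higher and 19.9% lower among all genes tested (median log2 change 0.21). The share that fell lies near the background. CCN2, the connective tissue growth factor, was at 1.32 ± 0.152 FPKM with IFN-beta and 0.363 ± 0.107 FPKM in control cells (log2 change 1.08, limma adjusted p = 0.000774). Its control libraries held 31, 17 and 24 reads. Their mean was under the level for testing, which CCN2 passed only through its IFN-beta libraries, so a difference was favoured by that filter. The count of 10 that rose includes CCN2. CIITA, a transactivator of class II genes that can repress type I collagen genes, rose by log2 0.73 (limma adjusted p = 2.34e-05). TP63, the epidermal master regulator, named after its values were seen, rose to 174 ± 5.01 FPKM, against 131 ± 10.1 FPKM in control cells. TGFB2, a ligand of the pathway, fell by 0.50 on the log2 scale (limma adjusted p = 0.0169), a call kept in 15 of 18 alternatives. Among the settings that ended it were those without IFN-beta replicate 3 or control replicate 1. TGFBR1, a receptor, SMAD2, a signal transducer, and YBX1, a repressor of collagen transcription, were named after their values were seen and fell by 0.23, 0.27 and 0.29 on the log2 scale (limma adjusted p = 0.00576, 0.00433 and 0.000155). TGFB1, SMAD3, TGFBR2 and TGFB3, also named after their values were seen, went the other way. They rose by log2 0.44, 0.38, 0.37 and 0.36 (limma adjusted p = 0.00112, 0.000596, 0.000556 and 0.0385). TGFB3 was low, at 1.48 ± 0.0562 FPKM with IFN-beta and 1.05 ± 0.0646 FPKM in control cells, from 44 to 82 reads per library. How these calls fared in the alternatives is not reported here. SMAD4 and SMAD7 did not pass (limma adjusted p = 0.858 and 0.983). SP1, which binds GC boxes in collagen promoters, was at 45.2 ± 1.53 FPKM with IFN-beta and 44.8 ± 1.84 FPKM in control cells (limma adjusted p = 0.857), and its sign changed with some settings.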

How the data were processed

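RNA of 6 HaCaT libraries was measured, 3 with IFN-beta and 3 controls, grouped and numbered by sample title; 1 title is spelled IFNl 3 and its treatment label is IFN-beta. The authors deposited 1 table of FPKM values with gene names and coordinates. For aligner, counter and strand use, the sources used here give nothing; the labels' protocols list CLC Genomics Workbench 11.0.1 for an unstated step. Per the submitters' processing notes the builds were GRCm38 and mm10, of mouse, but all 60671 identifiers are human. Coordinates are as deposited, with the build not stated for the human genes; of the 44 collagen genes, all were in GENCODE 29 and 16 had the same coordinates there.

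Whole reads were recovered from the steps of the FPKM for 30506 of 30507 genes with a value, within 0.01 reads, taking the smallest whole length, or the GENCODE 29 exon length where that gave whole reads. The recovered length lay within 5% of the mean transcript length for 11 of 15 collagen genes with more than 50 reads. These reads came to 99.84% to 99.88% of each library total, and 3 reads were the floor, which covers counting error only.

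Tests used limma 3.58.1 in R 4.3.3 (lmFit, eBayes with trend, two-sided) on log2(FPKM + 0.5), which understates changes of low genes, over 15163 genes with mean FPKM of at least 0.5, at a Benjamini-Hochberg adjusted p of 0.05. The IFN-beta against control fit was tested on simulated data (15163 genes, 50 changed at each size): it called 38% at 1.25-fold, 70% at 1.5-fold, 88% at 2-fold and 98% at 4-fold, and 6 of 14963 unchanged genes. Far fewer genes were changed there than the 42.4% called in the real fit, so these shares need not hold for it. The simulated noise was independent between genes, so it cannot show false calls from variation that genes share. Sums and ratios over collagen genes have no test.

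The collagen genes, partner lists and alternatives were chosen with earlier results of these data known. Named are all tested collagen genes and, of each partner list, up to 4 called genes by size of change and 1 gene that did not pass, that with the highest mean; others are marked, and some genes the rule covers are not reported here. The closing section gives alternatives, which were pseudocounts 0.1 and 1, no filter, a minimum of 2 FPKM, TPM, quantile and median-of-ratios scaling, other eBayes settings, a replicate block, each library left out, and limma voom on recovered reads. Longest-transcript FPKM and removal of the length trend (loess) were added after seeing the data. Python 3.11.15, pandas 2.3.3 and numpy 2.4.6 made tables.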

Additional observations from a re-analysis of the deposited data

How the results depend on the processing

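COL17A1, COL4A1, COL27A1, COL13A1, COL9A2 and COL8A1 were called higher in every alternative that tested them, although COL8A1 passed the level for testing only through its IFN-beta libraries. With longest-transcript FPKM the same held for COL9A2, at a mean of 0.88 FPKM with IFN-beta and 0.256 FPKM in control cells. A difference in COL9A2 was favoured by the filter in that setting. The number called higher was between 6 and 9, except 5 with longest-transcript FPKM, where COL1A1 and COL8A1 dropped below the level for testing and COL4A2 lost its call. The number called lower ranged from 0 to 1 over libraries left out (COL4A5, without control replicate 3), was 2 with the length trend removed (COL12A1 at -0.197 and COL4A5 at -0.236, limma adjusted p = 0.0184 and 0.0204), and was 0 in the other alternatives. COL9A3 passed under TPM at 0.165 (adjusted p = 0.0377). Of 299 values of single collagen genes, 15 changed sign, all in COL18A1, COL16A1 and COL6A1, which did not pass. COL18A1 was at -0.006 with quantile scaling, -0.063 without the length trend and between -0.084 and 0.091 over libraries left out. COL16A1 was at -0.009, -0.037 and between -0.077 and 0.125 in the same settings. COL6A1 was at -0.116 with quantile scaling, -0.006 with median-of-ratios, -0.021 with voom, -0.077 without the length trend and between -0.109 and 0.157 over libraries left out. SP1 was at -0.023 with quantile scaling, -0.002 with median-of-ratios, -0.087 without the length trend and between -0.021 and 0.037 over libraries left out, and CTSB at 0.007 under TPM. The cause was not tested. Higher genes made up 53.2% of all calls, 63.2% under TPM, 41.3% with quantile scaling and 37.7% without the length trend.

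Deviations from the group mean correlated at -0.0524, -0.0982 and -0.0582 between same-number libraries, and at between 0.00471 and 0.0593 between libraries of different number. These values gave no positive correlation by replicate number. They cannot show whether same-number libraries were grown or prepared together, which is not labelled. With the replicate block 9 collagen genes were called higher, with COL4A6 added (limma adjusted p = 0.049), and 5817 genes were called in all against 6431. Low read numbers limit COL1A1, COL8A1, COL9A2 and the 28 genes below the level for testing.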

Other observations

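Besides the 44 chain genes, the deposited table holds 9 genes with COL-like names and another ending, which are antisense, divergent or pseudogene entries. Of these, 7 were at 0 in all 6 libraries. COL4A2-AS1 had 4, 6 and 26 reads in IFN-beta libraries and 10, 10 and 6 in control libraries, so 1 IFN-beta library stood above the rest, and it did not pass the test (limma adjusted p = 0.85). COL4A2-AS2 had 1, 3 and 8 reads with IFN-beta and 3, 6 and 2 in control libraries.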
